A study of Mus musculus with 12 samples.

Results

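The immediate early genes described here are Fos, Fosb, Fosl1, Fosl2, Jun, Junb, Egr1, Nr4a1, Ier2 and Ier3, 10 of the 19938 genes measured with a single-symbol probe set in mouse embryonic fibroblasts on Affymetrix Mouse Gene 1.0 ST arrays. They were chosen by name, and each had exactly 1 such probe set, so all 10 were measured and none was filtered out. There were 4 groups of 3 arrays: fibroblasts of genotype Rb1 S/S, the Rb1 +/+ cells matched to them (together the S set), fibroblasts of genotype Rb1 L/L, and the Rb1 +/+ cells matched to those (together the L set). Cells of all groups were grown in 10% serum to passage 4 and held in 0.1% serum for 72 h before RNA was extracted, so that every array, wild type included, shows serum-deprived cells and no array shows serum-fed cells. The labels do not spell out the alleles. In published mouse strains with these names the L allele disables the cleft of the retinoblastoma protein that binds LXCXE-motif proteins, and the S allele disables a contact that is specific for E2F1. The labels do not say whether the arrays of a group came from separate embryos. Sex-linked genes, given below, show both sexes in each L-set group, which therefore holds cells of more than 1 embryo. Each p-value reflects the spread of these arrays alone. In the S set, and between arrays 2 and 3 of each L-set group, that spread may be technical.

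Immediate early genes are transcribed within minutes of growth factor or stress signalling without new protein synthesis. In fibroblasts returned to serum, ERK signalling acts through serum response factor and its ternary complex partners, and through CREB at cAMP response elements, to induce them. FOS-family proteins pair with JUN-family proteins as the AP-1 transcription factor, EGR1 and NR4A1 are DNA-binding factors of other families, and the transcripts of most of these genes decay quickly. The retinoblastoma protein holds arrested fibroblasts out of the cell cycle by repressing E2F-driven genes.

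The values are log2 RMA values, which are background-corrected and normalized between arrays, and the brightness of probe sets differs, so levels are read within a gene and not between genes. Array medians lay between 6.85 and 7.01. A single array differed from the rest, S-set wild-type array 1, with an interquartile range of 3.10 against 3.39 to 3.60 in the other 11 arrays. In arrays 1 of L/L and of its wild type, the X-linked non-coding RNA Xist read 5.41 and 5.06 and the Y-linked gene Eif2s3y 9.09 and 9.15, a male pattern, while Xist read 10.37 to 11.48 and Eif2s3y 3.82 to 4.43 in the other 10 arrays. Of 12 fibroblast markers, 8 had positive and 4 negative differences in S/S, where 42.4% of all genes were positive. In L/L 1 was positive and 11 were negative, where 55.9% of all genes were positive. None passed in either mutant, while between the wild types Dcn (0.35) was higher and Thy1 (-0.49) lower in the L set. The lowest S/S difference was that of Lum, which averaged 10.06 in S/S and 10.81 in its wild type, and 10.59 in L/L and 11.06 in its wild type. Rb1 transcript was present in every array, at 9.72, 9.58 and 9.35 in S/S against 8.34, 8.83 and 8.89 in its wild type, and at 9.39, 9.36 and 9.23 in L/L against 9.23, 9.05 and 8.61 in its wild type. Neither difference passed in limma (adjusted p = 0.0976 and 1), and an RNA level does not check an allele that changes the protein.

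None of the 10 genes passed in S/S or in L/L at an adjusted p under 0.05 in limma, where 0.12% and 0.0401% of all genes passed. At an unadjusted p under 0.05 there were 2 members in S/S and 3 in L/L, all higher in the mutant, where 5.21% and 2.68% of all genes were higher by that rule. Between the wild types 3 of the 10 passed, Fosl1, Egr1 and Nr4a1, all lower in L-set than in S-set wild type, where 8.71% of all genes passed and 5.17% were lower. Without both male arrays, which are in the L set, 0 of the 10 passed between the wild types, with differences of -0.69 for Fosl1, -0.32 for Egr1 and -0.40 for Nr4a1. That fit holds fewer arrays, and in it 304 of all genes passed between the wild types in place of 1736, and 2 in L/L in place of 8. Among the members and the pathway and cell-state lists given further on, 39 genes passed between the wild types with 12 arrays, of which 3 passed in that fit. The wild-type arrays of all 39 did not overlap, so their direction could not change when L-set arrays were left out, and the kept direction is no support. The sets may also differ in embryos, culture and array handling, which cannot be told apart. Fewer cells that express a gene and less RNA per cell cannot be told apart either in these bulk samples.

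**Figure D1:**
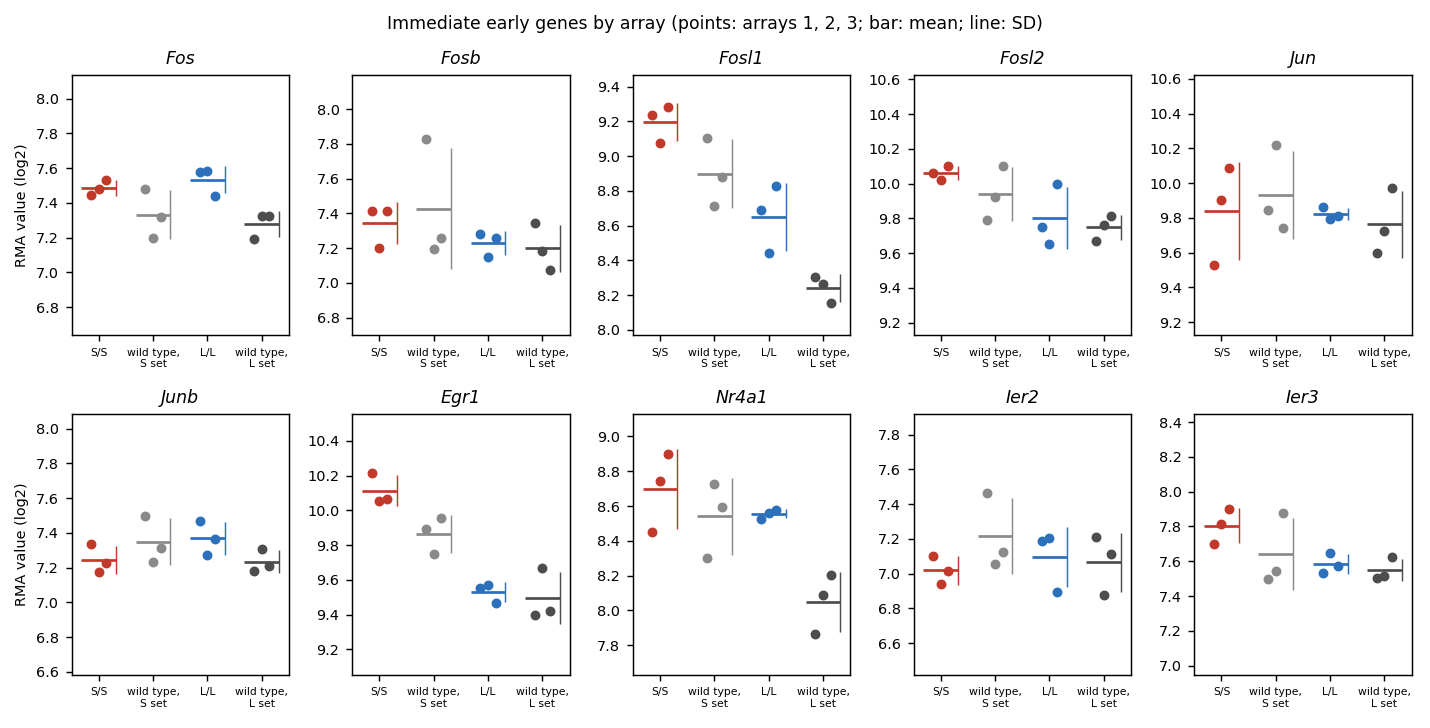
RMA values (log2) of the 10 immediate early genes in every array, in panels of equal height, with points for arrays 1, 2 and 3 of each group, a bar for the mean and a line for the SD (n = 3). Fosl1, Egr1 and Nr4a1 sit higher in S-set wild type than in L-set wild type, and the 3 L/L arrays of Nr4a1 lie between 8.53 and 8.58, above all 3 of their wild type.

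Within the FOS family the differences of Fosl1 were the largest in all 3 comparisons. Fosl1 encodes FRA1, an AP-1 subunit without the transactivation domain of FOS that accumulates late in the serum response. Fosl1 was 9.23, 9.08 and 9.29 in S/S, against 9.11, 8.71 and 8.88 in its wild type. Arrays 1 and 3 of S/S were above all wild-type arrays and array 2 was below wild-type array 1, the array with the narrower range. The S/S difference was 0.30 (SE 0.13, 95% interval 0.02 to 0.57, 1.23-fold, adjusted p = 0.465) and did not pass. Fosl1 was 8.69, 8.44 and 8.83 in L/L, against 8.31, 8.26 and 8.15 in its wild type. Here the groups did not overlap, and the difference was 0.41 (SE 0.13, 1.33-fold, unadjusted p = 0.00673, adjusted p = 0.783). Both differences passed when limma weighted the arrays by their quality, at 0.44 in S/S (adjusted p = 0.0484) and 0.40 in L/L (adjusted p = 0.0349), a setting under which 415 and 336 of all genes passed in place of 24 and 8.

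In the wild-type comparison Fosl1 was lower in the L set, at 8.24 ± 0.08 in the L set and 8.90 ± 0.20 in the S set (SD, n = 3 each). The difference of -0.66 (SE 0.13, 1.58-fold lower, adjusted p = 0.00871) passed in limma, and the 3 arrays of the L set were all below the 3 of the S set. It passed in each of 12 fits that left out a single array, at -0.75 to -0.56, and was -0.69 without both male arrays (adjusted p = 0.0567). The group means ran, high to low, from S/S through S-set wild type and L/L to L-set wild type. Among these neighbours S/S overlapped with S-set wild type, S-set wild type overlapped with L/L, and L/L did not overlap with L-set wild type.

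Fos itself, the AP-1 subunit best known for its rapid induction by serum, stayed within 0.39 on the log2 scale over all 12 arrays. It was 7.44, 7.48 and 7.53 in S/S, against 7.48, 7.20 and 7.32 in its wild type, and the groups overlapped through wild-type array 1. In L/L it was 7.58, 7.58 and 7.44, against 7.20, 7.32 and 7.33 in its wild type, without overlap. The differences were 0.15 in S/S (SE 0.10, adjusted p = 0.578) and 0.25 in L/L (SE 0.10, 1.19-fold, unadjusted p = 0.026, adjusted p = 1). The difference between the wild types was -0.05 (SE 0.10, 95% interval -0.27 to 0.17).

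Fosb and Fosl2 showed no difference past the threshold in any comparison. Fosb, whose product pairs with JUN proteins as FOS does, was 7.42, 7.20 and 7.41 in S/S, against 7.83, 7.20 and 7.26 in its wild type. S-set wild-type array 1 gave the single high value, and without that array the S/S difference of -0.08 (SE 0.15) became 0.12. In the L set Fosb was 7.28, 7.15 and 7.26 in L/L, against 7.34, 7.19 and 7.07 in its wild type. Fosl2, which encodes FRA2, another subunit without a FOS-type transactivation domain, was 10.06, 10.02 and 10.10 in S/S, against 9.79, 9.92 and 10.10 in its wild type. Its values overlapped in the L set too, at 9.75, 9.65 and 10.00 in L/L, against 9.67, 9.76 and 9.81 in its wild type. The 95% interval of the Fosl2 difference ran from -0.12 to 0.37 in S/S and from -0.19 to 0.30 in L/L.

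The JUN-family members did not pass either. Jun, the central DNA-binding partner of the FOS proteins, had the widest spread within groups of the 10 genes, with a residual SD of 0.21. It was 9.53, 9.90 and 10.09 in S/S, against 9.84, 10.22 and 9.74 in its wild type, and 9.86, 9.79 and 9.81 in L/L, against 9.60, 9.72 and 9.97 in its wild type. Its differences were -0.09 in S/S and 0.06 in L/L (SE 0.16 each), and the spread of S/S alone covered 0.28 as SD. Junb, which encodes a JUN protein that can restrain proliferation, was 7.33, 7.17 and 7.23 in S/S, against 7.50, 7.23 and 7.31 in its wild type. In L/L it was 7.47, 7.28 and 7.36, against 7.18, 7.31 and 7.21 in its wild type, and the groups overlapped in both sets. Junb differed by -0.10 in S/S and by 0.14 in L/L (SE 0.10 each), and the difference between these effects of -0.24 did not pass (adjusted p = 0.785).

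**Figure D2:**
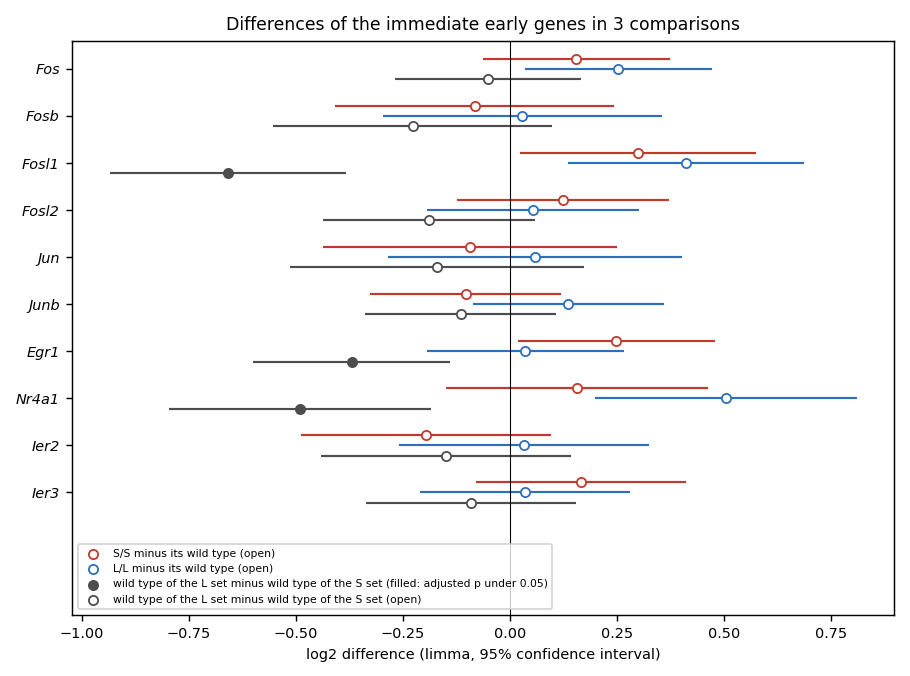
Log2 differences of the 10 genes from limma, with 95% confidence intervals as lines, for each mutant minus its matched wild type and for L-set minus S-set wild type. Only the points of Fosl1 (-0.66), Egr1 (-0.37) and Nr4a1 (-0.49) in the wild-type comparison are filled, which marks an adjusted p under 0.05.

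Egr1, a zinc-finger factor induced through serum response elements, split the arrays by set. It was 10.22, 10.06 and 10.07 in S/S, against 9.89, 9.75 and 9.96 in its wild type. It was 9.56, 9.57 and 9.47 in L/L, against 9.40, 9.67 and 9.42 in its wild type, so the 6 arrays of the S set were all above the 6 of the L set. The share of all genes that split this way was not counted. Between the wild types alone, 16.1% of all genes were lower in the L set without overlap. The S/S arrays were also all above their wild type, with a difference of 0.25 (SE 0.11, 1.19-fold, unadjusted p = 0.0361, adjusted p = 0.465) that did not pass. Egr1 was the 1 member whose S/S arrays did not overlap with wild type, where 5.49% of all genes lay above without overlap. The L/L difference was 0.04 (SE 0.11, 95% interval -0.19 to 0.27), and the difference between the effects, 0.21, did not pass (adjusted p = 0.79). L-set wild type was 1.29-fold lower than S-set wild type, at 9.50 ± 0.15 in the L set and 9.86 ± 0.11 in the S set (SD, n = 3 each; difference -0.37, SE 0.11, adjusted p = 0.0482). That call was close to the threshold and was kept in 2 of 12 fits that left out a single array, and without both male arrays the difference was -0.32 (adjusted p = 0.259).

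Nr4a1 encodes NUR77, an orphan nuclear receptor induced by growth factors and by membrane depolarisation. It was 8.53, 8.56 and 8.58 in L/L, against 7.86, 8.09 and 8.20 in its wild type, so all 3 mutant arrays were higher and nearly level with each other. The difference was 0.50 (SE 0.14, 95% interval 0.20 to 0.81, 1.42-fold, unadjusted p = 0.00341), and its adjusted p over all genes was 0.557. With arrays weighted by quality it was 0.48 and passed (adjusted p = 0.00829). In S/S Nr4a1 was 8.45, 8.75 and 8.90, against 8.30, 8.73 and 8.60 in its wild type, with overlap and a difference of 0.16 (SE 0.14, adjusted p = 0.68). The S/S effect minus the L/L effect was -0.35, which did not pass (adjusted p = 0.785). Between the wild types Nr4a1 was 1.41-fold lower in the L set (-0.49, SE 0.14, adjusted p = 0.0483), without overlap, and passed in 3 of 12 fits that left out a single array. Without both male arrays that difference was -0.40 (adjusted p = 0.263). The L/L arrays lay inside the range of S-set wild type, and L-set wild type is the group both comparisons share.

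The start regions of Nr4a1 and Fos, 2 of the 3 members whose L/L arrays did not overlap with wild type, are shown because cAMP response elements carry part of the serum signal to these genes. RefSeq sequences of the GRCm38.p6 build were read for 7 of the 10 members (Fos, Fosb, Fosl2, Jun, Junb, Nr4a1 and Ier3), and the remaining members were left out. The 250 bases before the start that the RefSeq promoter table gives are printed 5′ to 3′ on the strand of the gene, with capitals for TGACG or its reverse complement (the half-site of the cAMP response element) and for TATAAA. Nr4a1 lies at chr15:101266596-101266845 and Fos at chr12:85473640-85473889, both on the plus strand. The Fos window ends at the base before the gene record begins, whereas the Nr4a1 window lies inside its gene record (101253902 to 101274795), so its start is not the outermost one of that record.
Nr4a1: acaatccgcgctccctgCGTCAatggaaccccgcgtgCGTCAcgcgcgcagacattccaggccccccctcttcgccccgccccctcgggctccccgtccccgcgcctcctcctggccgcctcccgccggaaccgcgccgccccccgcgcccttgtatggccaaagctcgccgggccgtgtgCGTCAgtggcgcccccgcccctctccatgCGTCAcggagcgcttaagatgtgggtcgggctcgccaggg
Fos: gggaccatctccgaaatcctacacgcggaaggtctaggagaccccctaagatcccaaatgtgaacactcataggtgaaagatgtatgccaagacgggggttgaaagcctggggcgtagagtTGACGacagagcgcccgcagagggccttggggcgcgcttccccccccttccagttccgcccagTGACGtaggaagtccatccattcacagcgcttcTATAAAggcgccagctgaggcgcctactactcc

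All motifs were searched on both strands, and the half-site, which is also part of the palindrome TGACGTCA, was chosen after the sequences had been seen. Nr4a1 held 4 matches and Fos 2, the nearer of which ran from base -66 to -62 before the start, and Fosb and Junb held 1 each, against none in Fosl2, Jun and Ier3. Among 27025 promoters of the same length, 17.9% held at least 1. That palindrome, the AP-1 site TGANTCA and the CArG box, which serum response factor binds, had 0 matches in the 7 windows, where 1.62%, 6.87% and 1.40% of all promoters held one. The windows of Fosl1, Egr1 and Ier2 were not searched. The counts therefore leave out Egr1, described above as induced through serum response elements. TATAAA was found in Fos alone, at -33 to -28 (13.0% of all promoters). The E2F-type motif TTTNNCGC was found in Fosl2 alone (4.39% of all promoters), and GGGCGG in 6 of the 7 windows (32.9%). A match is a description of letters and the arrays do not measure binding. The windows are also short, and elements farther from the start are outside them.

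The remaining pair, Ier2 and Ier3, are short genes named for their immediate early response. Ier2 encodes a nuclear protein with a part in transcription and cell motility. It was 7.10, 6.94 and 7.01 in S/S, against 7.46, 7.05 and 7.13 in its wild type, and 7.19, 7.21 and 6.90 in L/L, against 7.21, 6.88 and 7.11 in its wild type. It overlapped between mutant and wild type in both sets, with differences of -0.20 (SE 0.14) in S/S and 0.03 (SE 0.14) in L/L. Ier3 encodes IEX-1, a regulator of cell survival that is induced by growth factors and NF-kB. It was 7.70, 7.82 and 7.90 in S/S, against 7.50, 7.55 and 7.88 in its wild type, and wild-type array 3 fell among the S/S arrays. In L/L it was 7.53, 7.65 and 7.58, against 7.51, 7.52 and 7.63 in its wild type. Its differences were 0.16 in S/S and 0.04 in L/L (SE 0.11 each).

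Read by array, 3 of the 10 genes, Fosb, Junb and Ier2, had their highest value of all 12 arrays in S-set wild-type array 1. These are among the dimmer members, and of all 1519 genes with a mean between 7 and 7.5 that array held the highest value for 41.3%, against 4.99% of genes with a mean between 9 and 11. S/S array 3 held the highest value of 4 members (Fosl1, Fosl2, Nr4a1 and Ier3), and L-set wild-type array 1, a male array, held the lowest of 3 (Fos, Egr1 and Nr4a1). The share of all genes was not counted for either array, so these counts are not read as a trait of the members. The highest and lowest arrays differed by 0.33 on the log2 scale for Junb and by 1.13 for Fosl1, with a median over the 10 genes of 0.64, against 0.67 over all genes.

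How the 10 genes varied together was read over 12 arrays, as a description. The correlation of 45 pairs of members had a median of 0.22 and was above 0 for 32 pairs, and it reached 0.84 for Fosl1 with Egr1, both higher in the S set. After the mean of each group was taken out the median was 0.05, with 25 pairs above 0. Jun and Nr4a1 then had the highest value, 0.82 over 12 arrays, and 0.89 without S-set wild-type array 1. Fosb with Fosl1 had 0.81, and 0.75 without that array, while Fosb with Fos had 0.48, and -0.35 without it. Arrays share normalization, culture and handling, so these values say nothing of shared control.

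**Figure D3:**
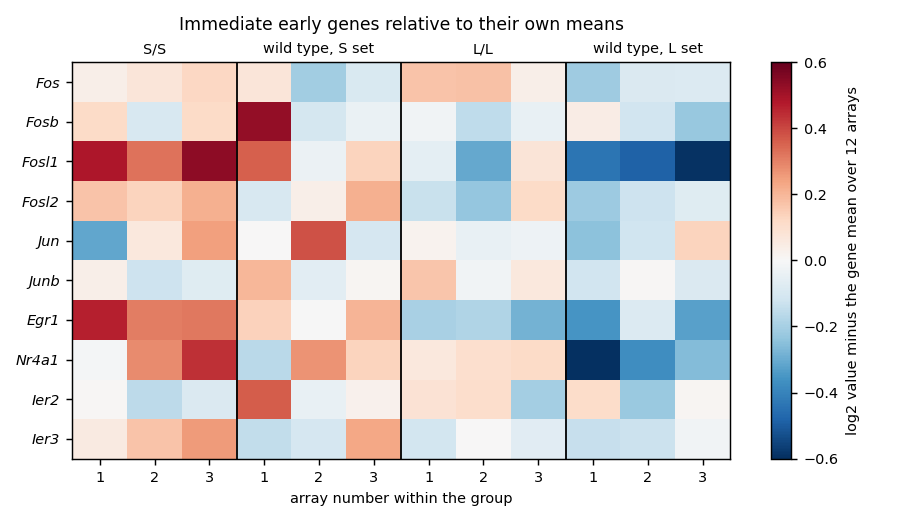
Each of the 10 genes in each of the 12 arrays as the log2 value minus the mean of that gene over all arrays, red for higher and blue for lower, with arrays 1 to 3 of each group side by side. Fosl1, Egr1 and Nr4a1 are red in most S/S arrays and blue in L-set wild type, and Fosb, Junb and Ier2 are reddest in S-set wild-type array 1.

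Among genes outside the list with a mean of at least 6, those with the profile nearest to the mean of the 10 members over 12 arrays were Mylk, the myosin light chain kinase gene (Pearson r 0.97), Ppp2r5d (0.96), Myo9b (0.94), Pde4a (0.94) and Sorbs3 (0.94). For Fos they were Ces2e (0.89), Phyhip (0.84), Kank3 (0.82), Ap5z1 (0.81) and Mir125a (0.80). For Junb they were Tagln3, 5730522E02Rik, Gm7932, 9330020H09Rik and Pnck, at 0.87 to 0.90. For Ier3 they were Grn (0.96), Trappc4 (0.95), Map3k11 (0.94), Prrc2b (0.93) and Zfp598 (0.93). These are the nearest of 14740 genes compared over 12 arrays, picked for being highest, and they say nothing of shared function.

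In S/S against wild type, 6 of the 10 members were positive with a median of 0.14, beside -0.04 over all genes, of which 42.4% were positive. In L/L all 10 were positive with a median of 0.06, beside 0.02 over all genes, of which 55.9% were positive, and 3 (Fos, Fosl1 and Nr4a1) lay above wild type without overlap, where 9.71% of all genes did. In the wild-type comparison all 10 were negative with a median of -0.18, beside -0.07 over all genes, of which 38% were positive, and 3 lay below without overlap, where 16.1% of all genes did. The L/L and wild-type comparisons share the wild-type arrays of the L set, so that a low value there enters both. For 0 of the 10 did the S/S and L/L effects differ past the threshold (0.015% of all genes passed), and for 0 at an unadjusted p under 0.05 in limma, where 6.5% of all genes did. The difference between the effects ran from -0.35 for Nr4a1 to 0.21 for Egr1.

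The upstream genes of the pathway were read from lists chosen by role. Of 10 genes listed for serum response factor and its cofactors, 0 passed in S/S or L/L. Between the wild types 3 passed, all lower in the L set, where 8.71% of all genes passed and 5.17% were lower. They were Srf itself (-0.49), its actin-sensing coactivator gene Mrtfa (-0.64) and the ternary complex gene Elk3 (-0.34), with adjusted p-values of 0.00646 to 0.0302 in limma. The list also holds Nab1 and Nab2, corepressor genes of EGR proteins, which are not serum response factor cofactors. The median of the whole list was 0.15 in S/S, 0.08 in L/L and -0.32 between the wild types. Srf was 9.52, 9.52 and 9.56 in L/L, against 9.25, 9.40 and 9.44 in its wild type, and 10.03, 9.78 and 9.98 in S/S, against 9.91, 9.79 and 9.86 in its wild type, so that the S set was higher in all 6 arrays. For this split too, the share of all genes was not counted. Of 18 measured genes for serum receptors and ERK pathway kinases, 0 passed in either mutant, and 1 passed between the wild types, Met, the receptor gene for hepatocyte growth factor, higher in the L set (0.79, adjusted p = 0.00843). Without both male arrays 0 genes of either list passed between the wild types, with Srf at -0.43, Mrtfa at -0.59, Elk3 at -0.31 and Met at 0.77. Without S-set wild-type array 1, 3 of the 18 passed. The count over all genes also moved with the array left out, so this rise is not read as a trait of the list.

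Of 15 genes measured from a list of other AP-1 proteins, 0 passed in either mutant. The list also holds Creb1 and Crem, which are CREB-family genes and not AP-1 subunits. Between the wild types 2 of the 15 passed in limma, where 8.71% of all genes did. Jund, a JUN protein linked to quiescence, was lower in L-set wild type (-0.59, adjusted p = 0.0105). Creb1, the cAMP response element factor gene, was higher (0.43, adjusted p = 0.0444). Of 25 other immediate early transcription factors, 0 passed in S/S or L/L. Between the wild types 8 passed, where 8.71% of all genes passed and 5.17% were lower. The 6 that were lower in the L set were Egr2 (-0.87), Bhlhe40 (-0.78), the clock gene Per1 (-0.66), Nr4a2 (-0.58), Snai1 (-0.53) and Myc (-0.43), and the 2 that were higher were Id1 (0.42) and Id2 (0.53), inhibitors of helix-loop-helix factors. Egr2 and Nr4a2 are paralogues of Egr1 and Nr4a1. Egr2 averaged 7.41 in L/L and 7.36 in its wild type, against 8.51 in S/S and 8.23 in its wild type. Without both male arrays 0 of the 15 genes of the AP-1 list and 1 of the 25 factors passed between the wild types, Id2 (0.70), with Egr2 at -0.86, Per1 at -0.59 and Jund at -0.50.

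Genes that end the immediate early response were also read. Of 19 feedback inhibitors of growth factor signalling, 0 passed in the mutants, and Dusp4, a nuclear phosphatase of ERK, had the smallest p in S/S. Dusp4 was 8.94, 9.29 and 9.12 in S/S, against 7.78, 8.14 and 8.68 in its wild type, without overlap (0.92, SE 0.19, adjusted p = 0.0998). Between the wild types 4 of the 19 passed, all lower in the L set, where 8.71% of all genes passed and 5.17% were lower. They were Dusp4 (-0.84), Socs3 (-0.70), Trib1 (-0.48) and the RAS pathway inhibitor gene Spry4 (-0.40). Of 21 RNA-decay and antiproliferative genes, 0 passed in the mutants and 5 between the wild types, beside the same shares of all genes. Phlda1 (-0.81), Plk3 (-0.80), Rhob (-0.60) and the mRNA decay factor gene Zfp36 (-0.56) were lower and Gadd45a (0.39) higher in L-set wild type. Leaving out both male arrays, 0 of the 19 and 1 of the 21 passed between the wild types, Plk3 (-0.76), with Dusp4 at -0.78, Socs3 at -0.55 and Phlda1 at -0.82. Btg2, an antiproliferative gene, was 10.48, 10.48 and 10.53 in S/S, against 9.90, 10.10 and 10.15 in its wild type, a difference of 0.45 (SE 0.11, adjusted p = 0.197). In L/L it was 10.49, 10.38 and 10.50, against 10.28, 10.11 and 9.90 in its wild type, a difference of 0.36 (SE 0.11, adjusted p = 0.776). Neither comparison of Btg2 overlapped, and neither passed.

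The 17 measured secreted early response genes had a median of 0.32 in S/S, with 15 positive (42.4% of all genes) and 9 above wild type without overlap (5.49% of all genes). None passed over all genes in limma in S/S. At an unadjusted p under 0.05, 9 were higher, where 5.21% of all genes were higher by that rule. Ereg, an EGF-family ligand gene, was 7.21, 7.19 and 6.95 in S/S, against 6.09, 6.51 and 6.55 in its wild type (0.73, SE 0.15, adjusted p = 0.0965). Ptgs2, the inducible cyclooxygenase gene, was 11.08, 11.10 and 10.94 in S/S, against 10.07, 10.31 and 10.60 in its wild type (0.71, SE 0.18, adjusted p = 0.193). Ccn1, which encodes the matrix protein CYR61, was 11.99, 12.11 and 12.17 in S/S, against 11.81, 11.86 and 11.82 in its wild type, and 11.98, 11.77 and 11.82 in L/L, against 11.68, 11.56 and 11.53 in its wild type. It lay above wild type without overlap in both sets and passed in neither (0.26 in S/S and 0.26 in L/L, adjusted p = 0.415 and 1). In L/L the median of the list was 0.07, and 0 genes passed. At an unadjusted p under 0.05, 2 were higher and 1 lower, where 2.68% of all genes were higher by that rule. Between the wild types 0 passed, and 3 without S-set wild-type array 1, where the same limit on reading the list applies.

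**Figure D4:**
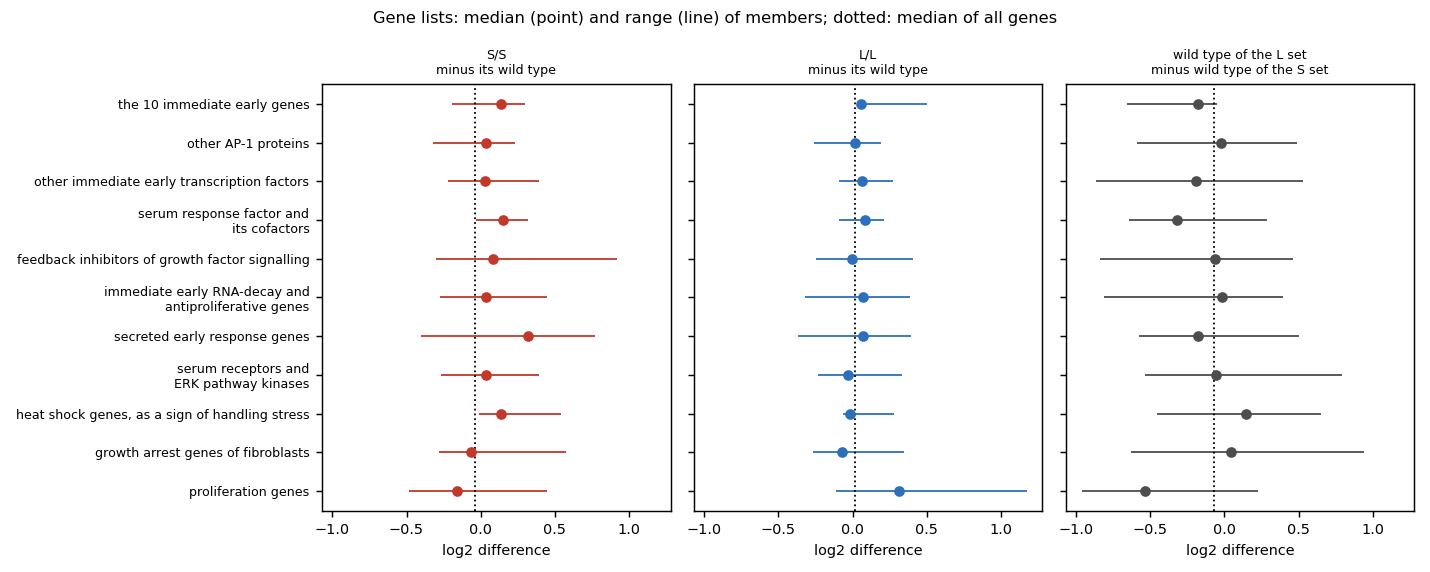
Median (point) and range (line) of the log2 differences of the genes in each list, in panels for each mutant minus its matched wild type and for L-set minus S-set wild type, with the median of all genes dotted. The 10 immediate early genes have medians of 0.14, 0.06 and -0.18, and the proliferation genes -0.16, 0.32 and -0.53.

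Other cell states and cell types were read beside these values. Relative to each gene's mean over 12 arrays, 17 proliferation genes averaged -0.03 to 0.10 in L/L against -0.63 to 0.02 in its wild type, where male array 1 was lowest, and -0.01 to 0.09 in S/S against -0.02 to 0.32 in its wild type. In the wild-type comparison 10 of the 17 passed, all lower in the L set, where 8.71% of all genes passed and 5.17% were lower. In L/L, where 0.0401% of all genes passed, only the helicase gene Mcm6 did, higher than wild type (1.17, adjusted p = 0.0308 in limma). Without both male arrays 1 of the 17 passed between the wild types, Plk1 (-0.72, beside -0.96 with 12 arrays), and 0 in L/L, where Mcm6 was 0.99 higher. Markers of macrophages and blood cells had positive differences in S/S for 15 of 15 genes (42.4% of all genes), with a median of 0.74. Of these, 13 lay above wild type without overlap, where 5.49% of all genes did. In limma 0 passed and 1 was higher at an unadjusted p under 0.05, where 5.21% of all genes were. The markers averaged 0.37 to 0.44 in S/S against -0.41 to -0.19 in its wild type. In the L set they averaged -1.18 to 0.38 in L/L against -0.84 to 1.15 in its wild type, with the male array lowest in each group. In L/L 14 of the 15 had negative differences, where 55.9% of all genes were positive. The model takes 1 spread per gene from all 4 groups, so this wide spread of the markers in the L set enters the S/S p-values too. Of the defining markers, Cd68 averaged 10.53 in S/S and 9.31 in its wild type, and 9.63 in L/L and 9.91 in its wild type, Lyz2 averaged 11.71 in S/S and 11.03 in its wild type, and Ptprc, which encodes CD45, averaged 6.49 in S/S and 6.15 in its wild type. Of 8 endothelial and 6 epithelial markers, 0 passed in either mutant. In S/S 3 endothelial markers were positive and 5 negative, with 2 higher at an unadjusted p under 0.05 in limma (5.21% of all genes). Emcn averaged 8.40 in S/S and 6.78 in its wild type, and 8.36 in L/L and 8.08 in its wild type. Flt1 averaged 9.57 in S/S and 8.85 in its wild type. Between the wild types Tek was higher in the L set (0.58, adjusted p = 0.0134 in limma). Heat shock genes, which handling stress induces together with immediate early genes, had 0 of 11 passing in the mutants, with medians of 0.14 in S/S and -0.02 in L/L, and Bag3, a heat shock cochaperone gene, was lower in L-set wild type (-0.45). Growth arrest genes had 0 of 16 passing in the mutants, with medians of -0.07 in S/S and L/L, and Foxo1 (-0.63) and Gas6 (-0.49) were lower in L-set wild type. Neither heat shock nor growth arrest genes had any passing between the wild types (0 of 11 and 0 of 16) without both male arrays, where Bag3 was -0.39, Foxo1 -0.60 and Gas6 -0.43. The part of these cell states and cell types in the values of the 10 genes was not tested.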

How the data were processed

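The deposited values are log2 RMA values of 12 arrays, made by the authors with Partek, as the series describes and per the labels. Its version, which arrays were normalized together and the genome build are not given in the sources used here. That the scale is log2 follows from the range of the deposited values. Of 35556 probe sets, 21789 were annotated to a single symbol. A gene was read by its single-symbol probe set with the highest mean over 12 arrays. One linear model with 4 group means was fitted with limma 3.58.1 in R 4.3.3 and checked on simulated data. Tests were two-sided and adjusted by Benjamini-Hochberg over 19938 genes within each comparison, with a threshold of 0.05. An exact permutation test of 3 against 3 arrays cannot give a p below 0.1. Precision is limited by having 3 arrays per group. Errors are SDs over 3 arrays or SEs of the model. Alternatives were another normalization, centring, filter, probe set rule, variance trend, array weights, replicate block, separate fits and arrays left out. The 10 genes and all lists were chosen by name with earlier results of these data known. Genes named besides the 10 came from a rule: of each list, every gene that passed in any comparison and the 2 of smallest p in S/S, L/L and between the wild types, then for Fos, Junb, Ier3 and the mean of the 10 the 5 genes with the highest correlation among those with a mean of at least 6, and Rb1. Not all of these are printed. Sex-linked and cell type marker genes served as checks. Of the list genes, 6 for receptors and kinases, 2 for secreted factors, and 1 each for AP-1, heat shock and proliferation had no single-symbol probe set.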

Additional observations from a re-analysis of the deposited data

How the results depend on the processing

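With arrays weighted by quality 415 genes passed in S/S, 336 in L/L, 6520 between the wild types and 293 for the difference between the effects, against 24, 8, 1736 and 3 otherwise, and 1 of the 10 members passed in S/S and 2 in L/L. Jun then passed between the wild types (-0.41, adjusted p = 0.00585). Without both arrays numbered 1 of the L set the counts were 37, 2 and 304 genes for S/S, L/L and the wild types, and 0 members passed between the wild types. Without both arrays numbered 1 of the S set they were 3, 42 and 2870 genes, and 8 for the difference. Quantile normalization gave 2686 genes between the wild types and 8 for the difference, and median centring gave 12 in S/S. Each set fitted alone gave 44 genes in S/S and 5 in L/L. Leaving out single arrays gave 2 to 38 genes in S/S, 2 to 26 in L/L, 525 to 2078 between the wild types and 3 to 21 for the difference. The members passing between the wild types were then 1 to 3, at -0.46 to -0.32 for Egr1 and -0.61 to -0.40 for Nr4a1. In every fit that left out an array the number of arrays fell with it, and the cause of other changes was not tested.

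The replicate block within each set gave 37 genes in S/S and 5 in L/L and 0 members in either, and does not apply between the sets. Deviations of same-numbered arrays correlated at 0.32, 0.32 and -0.10 in the S set and at 0.47, -0.03 and 0.31 in the L set. Those of differently numbered arrays ran from -0.46 to 0.45 in the S set and from -0.41 to 0.13 in the L set. Both arrays numbered 1 of the L set are male. The labels do not say that the numbers pair samples, so they were not taken as pairs, and these values do not settle it.

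Of 670 alternative values of the members, 22 changed sign, none of them in a difference that passed. Fosb in S/S was 0.11 with weights and 0.080 without both arrays 1 of the S set, when Jun was 0.016. Egr1 in L/L was -0.035 with weights and -0.026 without both arrays 1 of the L set, when Jun was -0.046. Between the wild types Fos was 0.084 with weights and 0.023 without both arrays 1 of the S set, and Junb 0.020 with weights. Single arrays left out moved Fosb from -0.20 to 0.12 and Jun from -0.22 to 0.061 in S/S. In L/L they moved Fosb from -0.035 to 0.10, Fosl2 from -0.045 to 0.13, Jun from -0.027 to 0.16, Egr1 from -0.014 to 0.12 and Ier2 from -0.063 to 0.13. Between the wild types they moved Fos from -0.12 to 0.023 and Ier3 from -0.16 to 0.029. Of the list counts between the wild types, chosen for a repeat after seeing the data, those without both male arrays were 0 of 10 for serum response factor and cofactors, 1 of 25 for other early transcription factors and 1 of 17 for proliferation genes, with fewer arrays in the fit.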
